A study of Mus musculus with 2 samples.

Results

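The genes described are 8 microRNA (miRNA) genes best known from other organs, of 1973 miRNA gene rows counted in the forebrain of mouse embryos. They were taken by name: Mir206, Mir208a, Mir208b, Mir1a-1, Mir133a-1 and Mir133a-2 as muscle genes, and Mir122 and Mir192 as liver genes. The study held 1 group of 2 libraries, made from RNA below 30 nt of B6NCrl forebrain at embryonic day 15.5. The embryos are labelled healthy, and no allele, agent or treatment is given for them. Each library was a pool of both sexes, of 78 embryos for replicate 1 and 62 embryos for replicate 2, so values of single embryos are not seen. As there is a single group, the tests set 1 pool against the other, or genes within a pool against each other, and none sets conditions apart.

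A miRNA is cut from a hairpin precursor as a short strand, and its seed, bases 2 to 8 from the 5′ end, guides it to the messenger RNAs whose output it lowers. miR-1, miR-133 and miR-206 are the classical muscle miRNAs, with miR-206 the one of skeletal muscle, and the miR-208 genes lie inside the myosin heavy chain genes of heart. miR-122 is the characteristic miRNA of hepatocytes, and miR-192 is known from liver, gut and kidney. The comparison asks how far these miRNAs were represented in forebrain RNA. Which cells of the forebrain held them cannot be seen in bulk counts.

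The counted unit was the precursor, with both arms added together. The precursors of 4 members with counts are shown first, since their sequence sets what could be counted at each gene. RefSeq (build GRCm38.p6) gave hairpins for 4 and mature sequences for 5 of the 8 members. Capitals mark the mature arms, 5′ arm first.
Mir206 hairpin: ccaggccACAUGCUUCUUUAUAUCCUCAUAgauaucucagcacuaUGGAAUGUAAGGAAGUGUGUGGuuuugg
Mir208a hairpin: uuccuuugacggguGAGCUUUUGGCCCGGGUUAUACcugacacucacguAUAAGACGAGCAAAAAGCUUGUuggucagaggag
Mir208b hairpin: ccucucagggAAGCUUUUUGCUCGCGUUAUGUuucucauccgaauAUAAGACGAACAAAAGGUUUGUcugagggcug
Mir192 hairpin: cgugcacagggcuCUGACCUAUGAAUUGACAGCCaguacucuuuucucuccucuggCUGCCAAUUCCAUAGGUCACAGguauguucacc

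The mature strands below are grouped by seed, which is in capitals, to show which members are read by the same target sites. miR-208a-3p and miR-208b-3p have 1 seed, and miR-499-5p, from another myosin gene, shares its bases 2 to 7. miR-192-5p and miR-215-5p also have 1 seed. miR-206-3p carries the seed known for miR-1.
miR-208a-3p: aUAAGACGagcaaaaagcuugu
miR-208b-3p: aUAAGACGaacaaaagguuugu
miR-499-5p: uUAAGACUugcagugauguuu
miR-192-5p: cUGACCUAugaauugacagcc
miR-215-5p: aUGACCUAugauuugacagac
miR-206-3p: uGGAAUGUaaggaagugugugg
miR-206-5p: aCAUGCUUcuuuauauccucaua
miR-1a-1-5p: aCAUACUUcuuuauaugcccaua
Counted from 1 at the 5′ end, miR-208a-3p and miR-208b-3p differ by G10A, A16G and C18U, with the miR-208a-3p base first. All 3 lie outside the seed. miR-192-5p and miR-215-5p differ by C1A, A12U and C20A, with the miR-192-5p base first. miR-1a-1-5p and miR-206-5p differ by A5G, G17C and C19U, of which A5G lies in the seed. Each arm of Mir206, Mir208a, Mir208b and Mir192, and miR-1a-1-5p, was found in 1 annotated mouse precursor only.

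Levels are in CPM, counts on the strand of the gene per 1000000 such counts in a library. Since each read is 1 short RNA, a level does not grow with gene length. Replicate 1 held 4464927 and replicate 2 held 4753555 gene counts. An observed 0 allows a level of up to 3 counts, which is 0.672 CPM in replicate 1 and 0.631 CPM in replicate 2. Intervals (95%) and these limits cover counting error only, since the reads carried no molecular identifier in the files. A ratio between 2 genes is a ratio of reads. Whether different sequences were captured equally was not tested, so such ratios may not be ratios of molecules. Detection means 10 counts or more in both libraries. Brain marker genes summed to 18693 CPM in replicate 1 and 18376 CPM in replicate 2 over 9 genes, 6 of them detected, and were led by Mir137 at 9092 CPM. The 3 genes of neuronal miR-124, which make the same mature strand, were low, with means from 1.05 to 2.80 CPM and none detected. Reads placed at more than 1 locus are in no gene row, so these low counts set no limit on miR-124. The brain sum likewise covers only reads placed at 1 gene. In bulk tissue, fewer cells of a type and less of an RNA per cell cannot be told apart.

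Of the 8 members, 5 were detected (62.5%), against 370 of all 1973 rows (18.8%), and the other 3 had no count in either library. The muscle members summed to 61.4 CPM in replicate 1 and 53.6 CPM in replicate 2, and the liver members to 150 and 174 CPM. Together all 8 made up 0.0220% of the gene counts. The detected share, the sums and this percentage cover only reads placed at 1 gene. Mir1a-1, Mir133a-1 and Mir133a-2 added no count to the muscle sum, and their precursors share sequence with other genes. Reads matching several genes are left out, so the muscle sum sets no limit on miR-1a-3p or miR-133a. The median of the 5 detected members was 38.0 CPM, against 111 CPM over all detected genes. By reads placed at 1 gene, Mir99a was the most abundant gene, at 296792 CPM. It stood 3495 times above Mir192, the highest member, and 43581 times above Mir208a, the lowest detected one.

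**Figure D1:**
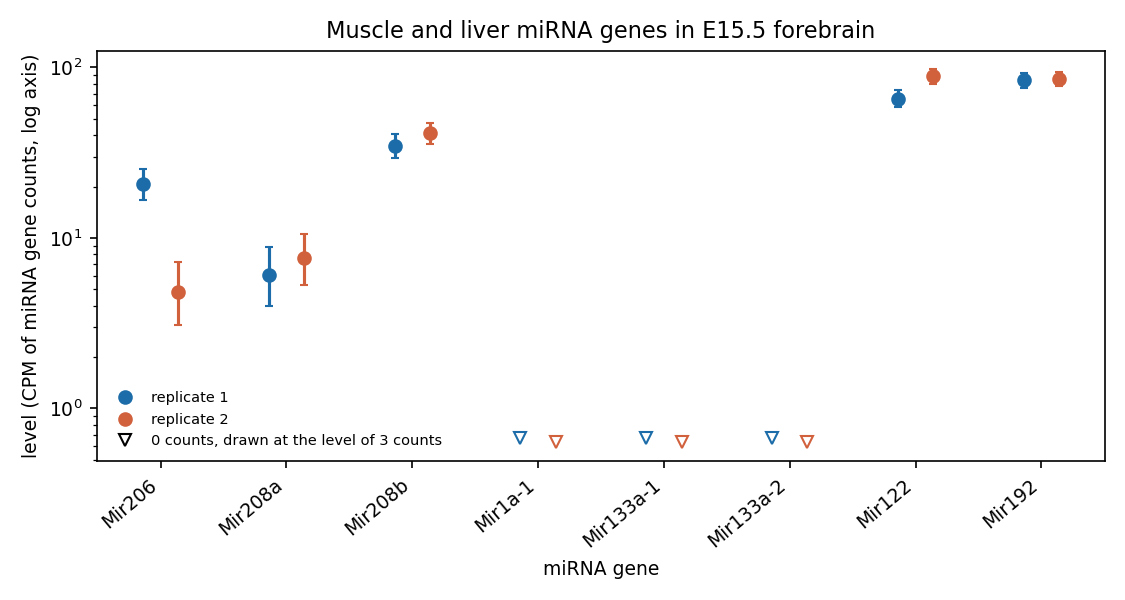
Level of each of the 8 genes (CPM, log axis) in replicate 1 and replicate 2, with exact Poisson 95% intervals; open triangles stand for 0 counts and are drawn at the level of 3 counts. Mir122 and Mir192 lie highest, Mir206 is the gene whose libraries lie farthest apart, and Mir1a-1, Mir133a-1 and Mir133a-2 have no count.

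By mean level the order was Mir192 (84.9 ± 1.30 CPM, SD, n = 2), Mir122 (77.1 ± 16.2), Mir208b (38.0 ± 4.61), Mir206 (12.7 ± 11.1) and Mir208a (6.81 ± 1.08). Among all gene rows these means ranked 200, 207, 244, 290 and 314, by reads placed at 1 gene only. Mir192 and Mir122 were not separated: the distance between their means was smaller than the SD of Mir122, and each was the higher one in 1 library. Mir206 and Mir208a also changed order between the libraries. Mir122 was above Mir208b, and Mir208b above Mir206, in both.

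**Figure D2:**
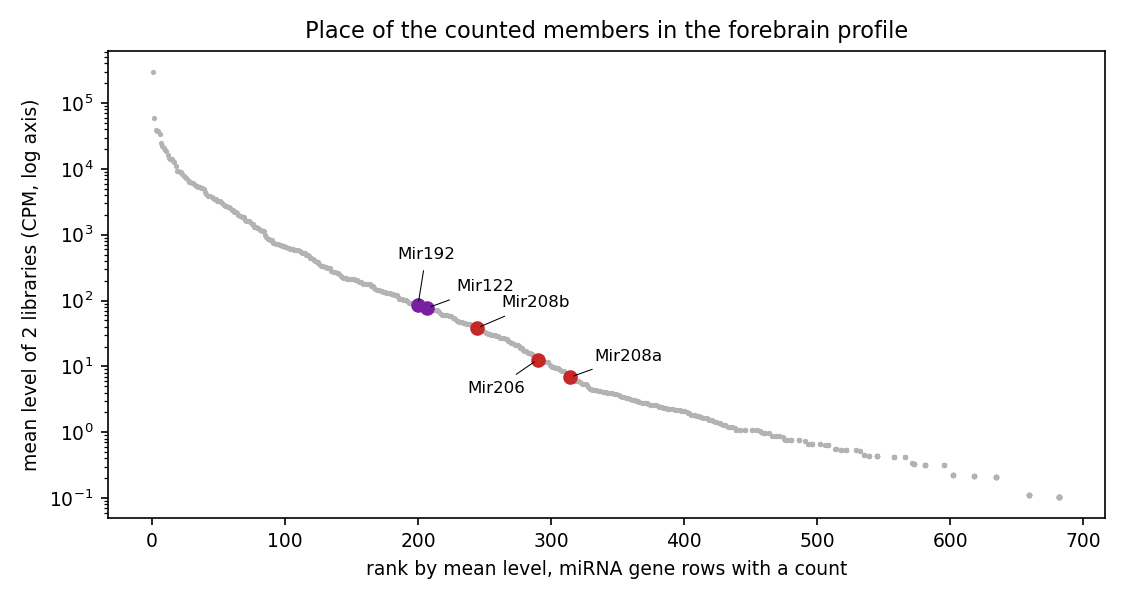
Mean level (CPM, log axis) of every miRNA gene row with a count against its rank; red points are muscle genes and purple points liver genes. The 5 detected genes fall between ranks 200 and 314, in the lower part of the detected profile.

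Skeletal muscle Mir206 (ENSMUSG00000065559.1, chromosome 1, 20679010 to 20679082 of mm10, plus strand) lies in an exon of the noncoding gene Gm28653. It had 92 counts in replicate 1 (20.6 CPM, interval 16.6 to 25.3) and 23 in replicate 2 (4.84 CPM, interval 3.07 to 7.26). Replicate 1 was high and replicate 2 low, and the intervals did not overlap. At the level of replicate 1, replicate 2 would have held 97.9 counts.

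The level of Mir206 was thus lower in replicate 2, by a log2 ratio of -2.07 (interval -2.82 to -1.42), or 4.19-fold (exact binomial test, adjusted p = 2.53e-11). A gene is called where this p, adjusted over all genes tested, is under 0.05. This was the largest absolute log2 ratio among the 370 detected genes. Of the 457 genes tested, 5 had a ratio at least as large, Mir206 included, and the others had fewer than 10 counts in 1 of the libraries. The difference compares 2 pools and has no replicate check.

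The neighbour of Mir206 was far lower. Mir133b, which makes a muscle miRNA of the miR-133 family, lies 3686 bp from Mir206 (chromosome 1, 20682769 to 20682887), in an exon of the same noncoding gene. It had 2 counts in each library. Mir206 exceeded it 46.0-fold in replicate 1 (interval 12.4 to 386) and 11.5-fold in replicate 2 (interval 2.84 to 101). The Mir133b precursor shares a stretch of 21 nt with that of Mir133a-2, so its counts are uncertain.

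Among lists for other cell types, the summed level in replicate 2 over replicate 1 was 1.13 for mesenchyme and mural cells, 1.22 for blood, 1.11 for epithelium, 1.03 for endothelium and 0.983 for brain. Calls within these lists stand beside the 19.3% of all 457 tested genes called higher and the 17.1% called lower in replicate 2. Of the brain genes, 9 were tested, with 2 called higher and 2 lower. The higher ones were Mir92b (log2 ratio 0.30) and Mir124a-3 (log2 ratio 4.30, at 0 and 10 counts). The lower ones were Mir137 (log2 ratio -0.21) and Mir128-1 (log2 ratio -0.08). The blood list, which holds Mir486 as the muscle list does, had 4 of 4 genes detected, at 217 and 264 CPM in all, and of 4 tested 2 were called higher in replicate 2. The mesenchyme and mural list had 6 of 7 detected, at 6041 and 6814 CPM, with 3 of 6 tested called higher. The epithelium list had 7 of 7 detected, at 1732 and 1917 CPM, with 2 of 7 tested called higher (Mir200a and Mir203). Most of that sum was Mir203, at 1103 and 1258 CPM. Mir200c (log2 ratio 0.21) was not called, nor were Mir200b, Mir141, Mir429 and Mir205, with log2 ratios from -0.18 to -0.03. The endothelium marker Mir126a stood at 15856 and 16377 CPM and was called higher. No gene of these 4 lists was at 0 in both libraries. The part of such cells in the levels of the members was not tested.

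The heart genes Mir208a and Mir208b were detected in both libraries, and their ratio was not found to differ between the pools. Mir208b (ENSMUSG00000077928.1) lies in an intron of Myh7 (chromosome 14, 54975700 to 54975776, minus strand), which encodes the beta myosin heavy chain. Mir208a (ENSMUSG00000065432.1) lies in an intron of Myh6 (chromosome 14, 54949060 to 54949142, minus strand), which encodes the alpha chain, 26557 bp away. Both precursors have the strand of their host.

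Mir208b had 155 counts in replicate 1 (34.7 CPM, interval 29.5 to 40.6) and 196 in replicate 2 (41.2 CPM, interval 35.7 to 47.4). Mir208a had 27 counts in replicate 1 (6.05 CPM, interval 3.99 to 8.80) and 36 in replicate 2 (7.57 CPM, interval 5.30 to 10.5). For each gene the intervals of the libraries overlapped, while the intervals of the 2 genes did not overlap in either library.

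In reads, Mir208b exceeded Mir208a 5.74-fold in replicate 1 (interval 3.80 to 8.99, exact binomial test, adjusted p = 1.00e-22 over 4 tests). In replicate 2 the excess was 5.44-fold (interval 3.80 to 8.0, exact binomial test, adjusted p = 3.12e-27 over 4 tests). The ratio was not found to differ between the libraries (Fisher's exact test, odds ratio 1.05, adjusted p = 0.891 over 2 tests). The longest stretch their precursors share is 14 nt, shorter than a mature strand.

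Mir499, in an intron of another myosin gene, Myh7b (chromosome 2, 155622880 to 155622958), was the lowest of these 3 genes. It had 11 counts in replicate 1 (2.46 CPM) and 19 in replicate 2 (4.0 CPM), and Mir208b exceeded it 14.1-fold and 10.3-fold. Between the libraries Mir208a (log2 ratio 0.32, interval -0.44 to 1.10), Mir208b (0.25, interval -0.06 to 0.56) and Mir499 (0.67, interval -0.45 to 1.92) were not called, with adjusted p of 0.565, 0.225 and 0.357 by the exact binomial test.

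**Figure D3:**
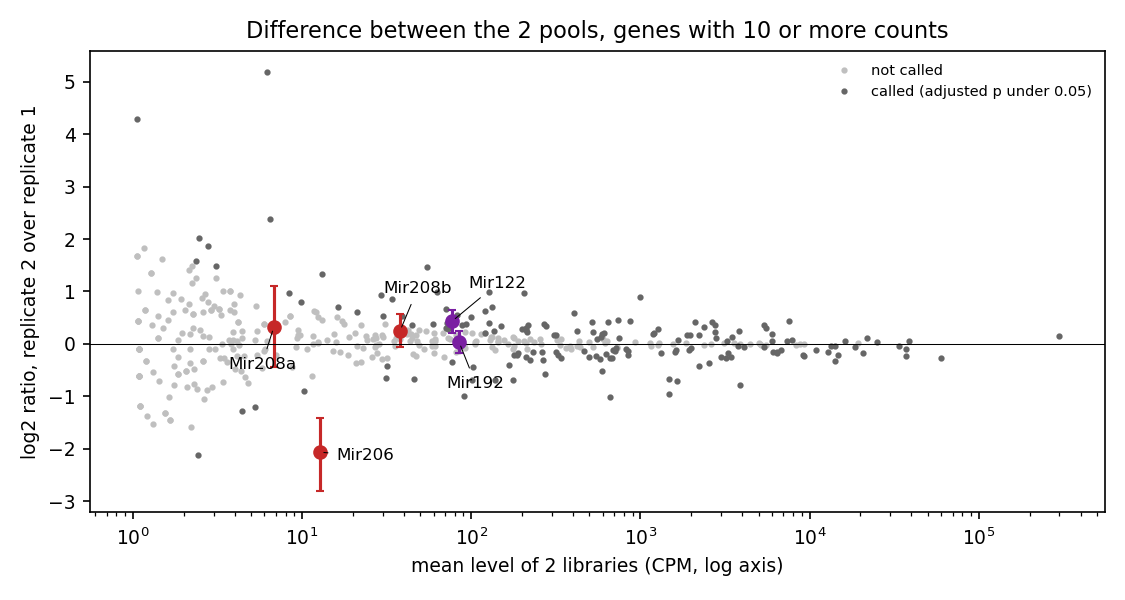
Log2 ratio of replicate 2 over replicate 1 against mean level (CPM, log axis) for the 457 genes with at least 10 counts in total; red and purple points with exact 95% intervals are muscle and liver genes, dark grey points are other called genes and light grey points are genes not called. Mir206 lies at -2.07, while Mir192, Mir208a and Mir208b have intervals that span 0 and Mir122 lies above it.

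Mir1a-1 (ENSMUSG00000070144.1), Mir133a-1 (ENSMUSG00000065399.1) and Mir133a-2 (ENSMUSG00000065460.1) had 0 counts on either strand in both libraries. They are the members with a near copy elsewhere in the genome. The Mir1a-1 precursor (chromosome 2, 180389048 to 180389124, outside any other annotated gene) shares a stretch of 28 nt with that of Mir1a-2. The Mir133a-2 precursor (chromosome 2, 180398379 to 180398482), 9254 bp from Mir1a-1, shares 31 nt with that of Mir133a-1 (chromosome 18, 10782909 to 10782976, in an intron of Mir133a-1hg). Both stretches are longer than a mature miRNA.

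Reads placed at more than 1 locus were held in a row of their own, with 5240531 reads in replicate 1 and 5543873 in replicate 2, or 1.17 for each count in a gene row in both. The files do not divide that row by sequence. A 0 here therefore limits reads that could be placed at 1 gene, and sets no limit on miR-1a-3p or miR-133a. For miR-1a-1-5p, whose sequence has 1 annotated precursor, the limits of 0.672 and 0.631 CPM apply if reads were placed without mismatch. They also need this arm to match nowhere else in the genome, which was not searched.

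The members divided by shared sequence. The 5 detected members shared no stretch of 20 nt with another annotated precursor, and the 3 at 0 did. The longest shared stretch of a detected member was 14 nt for the Mir208 genes, 13 nt for Mir206 and Mir192 and 12 nt for Mir122. Over all rows with a precursor sequence, 80 of 929 that shared such a stretch were detected (8.61%), against 290 of 965 that did not (30.1%). Any count at all was seen in 15.4% and 59.9% of these rows. The part of shared sequence in the 0 counts of the members was not tested.

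The other genes of the muscle list were low. Mir1b had 5 counts in replicate 1 and 15 in replicate 2 (1.12 and 3.16 CPM). It lies on the strand opposite to Mir1a-2 and shares at least 20 nt with Mir1a-1, so its counts are uncertain. Mir486, in an intron of the ankyrin gene Ank1 and known from muscle and red blood cells, had 70 and 76 counts (15.7 and 16.0 CPM). Mir133c had no count and shares no stretch of 20 nt. Mir1a-2 and Mir486b were not matched to a row and were not analysed here. Of the 5 matched genes, 3 were tested and none was called.

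**Figure D4:**
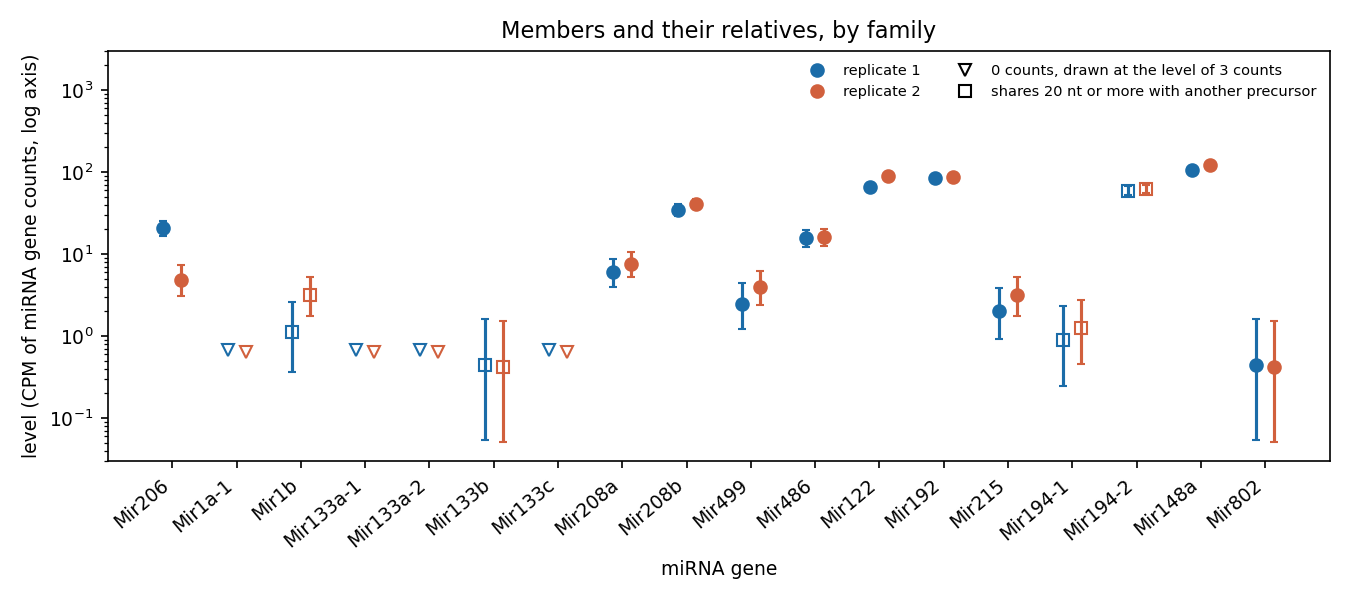
Levels (CPM, log axis) of the 8 genes and 10 relatives in replicate 1 and replicate 2, with exact Poisson 95% intervals; squares are genes with counts whose precursor shares 20 nt or more with another, and open triangles are genes with 0 counts, drawn at the level of 3 counts. Mir1a-1, Mir133a-1, Mir133a-2 and Mir133c have no count, and Mir194-2 is the highest of the squares.

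The liver genes Mir122 and Mir192 had the highest levels of the 8 members in both libraries. Mir122 (ENSMUSG00000065402.1) lies on chromosome 18 (65248861 to 65248926, plus strand), in an exon of the noncoding gene AC157910.3. It had 293 counts in replicate 1 (65.6 CPM, interval 58.3 to 73.6) and 421 in replicate 2 (88.6 CPM, interval 80.3 to 97.4). Replicate 2 was the high one and the intervals did not overlap.

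The log2 ratio of Mir122 was 0.43 (interval 0.21 to 0.65), a 1.35-fold higher level in replicate 2 (exact binomial test, adjusted p = 0.000332). The test covers counting error. Of the 370 detected genes, 73 (19.7%) differed by at least as much, and the spread between the libraries over those genes was 15.0% (edgeR coefficient of variation). For Mir122 the SD of the CPM values was 21% of their mean, and for Mir192 it was 1.53%. These shares hold counting error, which the edgeR value leaves out, so the measures are not alike.

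Mir192 (ENSMUSG00000065523.1, chromosome 19, 6264844 to 6264932, plus strand, outside any other annotated gene) had 375 counts in replicate 1 (84.0 CPM, interval 75.7 to 92.9) and 408 in replicate 2 (85.8 CPM, interval 77.7 to 94.6). The libraries overlapped, and the log2 ratio of 0.03 (interval -0.17 to 0.24) was not called (exact binomial test, adjusted p = 0.878).

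In reads, Mir192 exceeded Mir122 1.28-fold in replicate 1 (interval 1.10 to 1.5, exact binomial test, adjusted p = 0.00227 over 4 tests). In replicate 2 the ratio was 0.969 (interval 0.844 to 1.11, exact binomial test, adjusted p = 0.677 over 4 tests). The ratio itself differed between the libraries (Fisher's exact test, odds ratio 1.32, adjusted p = 0.0159 over 2 tests).

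Mir194-2, the neighbour of Mir192 at 115 bp (chromosome 19, 6264643 to 6264728), makes miR-194, which is known from the same organs. It had 264 counts in replicate 1 (59.1 CPM) and 298 in replicate 2 (62.7 CPM). Mir192 exceeded it 1.42-fold (interval 1.21 to 1.67) and 1.37-fold (interval 1.18 to 1.60). Its 5′ arm is the same as that of Mir194-1, which had 4 and 6 counts, so reads of that arm match both genes and their counts are uncertain.

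Mir215, with the seed of Mir192 (chromosome 1, 185313581 to 185313692), had 9 and 15 counts (2.02 and 3.16 CPM), and Mir192 exceeded it 41.7-fold and 27.2-fold. Mir148a, abundant in liver and in many other tissues, had 476 and 581 counts (107 and 122 CPM). Mir802, known from liver and pancreas, had 2 counts in each library. Of the 5 genes of this list 4 were tested and none was called. Whether the change of Mir122 differs from theirs was not tested.

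Of the 5 members tested between the libraries, 2 were called (Mir122 higher and Mir206 lower in replicate 2), against a background of 36.3% of the 457 tested genes. Over all genes tested, 19.3% (88 genes) rose and 17.1% (78 genes) fell in replicate 2. That split depends on the scaling, with 72 higher and 96 lower under TMM and 125 and 56 without Mir99a in the total, while the calls of the members held. The share of members called was thus near the background. Their median absolute log2 ratio was 0.32, against 0.23 over all genes tested. On the opposite strand, the 8 members had 0 counts in both libraries, which allows an opposite-strand share of up to 3.16% for Mir206, 1.05% for Mir208b, 5.69% for Mir208a, 0.515% for Mir122 and 0.470% for Mir192 (upper Clopper-Pearson bounds).

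The genes nearest to each member were found by distance in log2(CPM + 1) over the 2 libraries, which is a likeness of level over 2 points only. For Mir206 they were Mir216a (60 and 34 counts, distance 0.76) and Mir216b (62 and 43 counts, distance 0.95), chosen for likeness in these same libraries. The other members had closer neighbours. They were Mir5626 and Mir3547 for Mir208a, Mir150 and Mir452 for Mir208b, Mir19a and Mir877 for Mir122, and Mir200b and Mir329 for Mir192, at distances from 0.058 to 0.23.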

How the data were processed

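Small RNA below 30 nt was sequenced from 2 forebrain pools. The authors deposited whole-number counts per miRNA gene, not normalized, made from alignments to mm10 with GENCODE M4, per the deposited README text. Aligner, counter and settings: not given in the sources used here. Of the 3 count columns, the first is the sum of the others in every gene row, and of these the one with more counts in all served as the gene strand.

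The 4 rows that name no gene stayed out of totals and tests. In replicate 1 and replicate 2, 44.6% and 42.4% of reads were multi-mapping, 14.3% and 18.2% unmapped, and 2.42% and 2.53% outside any feature on either strand. Symbols, positions, hosts and precursor sequences came from GENCODE M21 by gene identifier, which named 1894 of 1973 rows. Printed sequences came from RefSeq, build GRCm38.p6. Precursors were compared on both strands, overlapping loci left out, and a shared stretch had at least 20 nt.

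CPM, means, SDs and intervals were computed with Python 3.11.15, pandas 2.3.3 and SciPy 1.17.1. The libraries were compared at each gene whose counts summed to 10 or more, by an exact binomial test (two-sided) with the library totals as the expected split, with Benjamini-Hochberg adjustment over all genes tested and a threshold of 0.05. Log2 ratios had 0.5 counts added. Within a library, 2 pairs of genes were tested (4 tests), and their ratios between libraries by Fisher's exact test (2 tests). edgeR 4.0.16 gave TMM factors and the spread with an intercept-only design, and DESeq2 1.42.0 size factors. With 1 group no quasi-likelihood contrast exists.

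The labels call the libraries biological replicates from separate pools. No source used here says whether the pools shared a litter, day or batch, so p-values measure the difference between these libraries, which may be technical. The text names the 8 members, the muscle and liver relatives, the 2 nearest genes of each detected member, marker lists where given and the most abundant gene. The members and lists were chosen with earlier results of these data known. Alternatives were other scalings and totals, both strands added, other count minimums, other added counts and leaving out each replicate.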

Additional observations from a re-analysis of the deposited data

Results flagged for a closer look

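In replicate 2, Mir486 had 4 counts on the strand opposite to the gene, and in replicate 1 it had 0. That column was used above only for the 8 members. Whether the libraries differ in these counts was not tested.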

How the results depend on the processing

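The members detected stayed at 5 with a minimum of 1 or 20 counts, with the column for either strand and in each library alone. The members called between the libraries stayed at 2, with Mir206 lower and Mir122 higher, under TMM and DESeq2 scaling, with a total that omits Mir99a, with the column for either strand, and with no minimum or a minimum of 100 counts, at which Mir208a was not tested. Over these settings and with 0.1 or 2 counts added, the log2 ratio of Mir206 ran from -2.11 to -2.0 and that of Mir122 from 0.39 to 0.49. Mir192 turned from 0.03 to -0.0091 with TMM scaling and was called under none of them. Levels depend on the total: without Mir99a the muscle members summed to 81.7 and the liver members to 231 CPM, and with all reads as the total to 21.4 and 60.1 CPM. With 1 library left out the sums ran from 53.6 to 61.4 and from 150 to 174 CPM. The level of Mir206 was 20.6 CPM with replicate 1 alone and 4.84 CPM with replicate 2 alone. No paired analysis was possible because the study holds 1 group. With 1 library left out no difference can be computed. Depth limits the members at 0 to the level of 3 counts, for reads placed at 1 gene only.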

Other observations

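Of the 49 tested genes with 58 to 230 counts in total, the range around the 115 counts of Mir206, 4 had an absolute log2 ratio of 1 or more between the libraries. They were Mir669f (1 and 58 counts), Mir6240 (9 and 52), Mir206 (92 and 23) and Mir193b (33 and 89). Mir206 was the only one of the 4 that was lower in replicate 2. Mir669f, Mir6240 and Mir193b were chosen after their values were seen.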
